A study of Mus musculus with 46 samples.

Results

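This comparison set H3K27ac in proliferating microglia of 8-day-old mice against H3K27ac in microglia of adult mice. Its members were 4 of the series' 46 samples: 2 libraries of Ki67-positive cells from postnatal day 8 (PND8) and 2 libraries of adult cells, each with its own list of H3K27ac peaks on mm10. The PND8 cells came from wild-type C57BL/6 males, were fixed and permeabilised, and were sorted after staining with an antibody to Ki67, a protein of cycling cells. The adult cells came from wild-type C57BL/6 males aged 60 and 65 days, labelled basal, and their labels give them as Ki67-negative. The file headers of the adult lists hold the word Vehicle, which the labels do not explain. Age and Ki67 status therefore differed together between the groups, and their shares in any difference cannot be told apart here. All cells were dissociated mechanically on ice with butyrate and flavopiridol, enriched on Percoll and sorted with antibodies to CD11b, CD45 and CD44. The RNA set beside the peaks came from other mice: PND8 Ki67-positive cells of males with the Ki67-rfp reporter, and cells of wild-type males aged 90 days without it, with 2 libraries in each group. The labels call the RNA libraries independent biological replicates, but do not say whether the H3K27ac libraries came from separate animals, so p-values measure the spread between these libraries, which may be technical.

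H3K27ac is acetylation of lysine on histone H3, a mark found at active promoters and enhancers. Microglia are the resident macrophages of the brain. They multiply in the first weeks after birth and rarely divide in the healthy adult. Genes of DNA replication are switched on before S phase by E2F factors, and genes of mitosis are switched on later, through promoter elements that include CCAAT boxes and the cell cycle genes homology region, whose core letters are TTTGAA. In quiescent cells both groups are held down by repressor complexes at the same promoters.

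The promoters below carry the main contrast and are shown for that reason: 4 genes of the cell cycle whose promoter was in both PND8 lists and in neither adult list, and 1 gene, Chst8, with the reverse pattern. Each run of 280 bases starts 250 bases before the RefSeq start site (GRCm38.p6), 5′ to 3′ on the gene's strand. Capitals mark the CCAAT box, the homology region core TTTGAA and the E2F element GCGGGAA, and each of them also on the opposite strand, where the letters read ATTGG for the first element, TTCAAA for the second one and TTCCCGC for the last one. Mki67 encodes Ki67 itself (chr7:135716350-135716629, minus strand). Cdk1 encodes the kinase that drives entry into mitosis (chr10:69352883-69353162, minus strand). Fam83d encodes a protein of the mitotic spindle (chr2:158767849-158768128, plus strand). Uhrf1 encodes a factor that recruits DNA methyltransferase to replicating DNA (chr17:56303087-56303366, plus strand). Chst8 encodes a sulfotransferase (chr7:34812682-34812961, minus strand).
Mki67: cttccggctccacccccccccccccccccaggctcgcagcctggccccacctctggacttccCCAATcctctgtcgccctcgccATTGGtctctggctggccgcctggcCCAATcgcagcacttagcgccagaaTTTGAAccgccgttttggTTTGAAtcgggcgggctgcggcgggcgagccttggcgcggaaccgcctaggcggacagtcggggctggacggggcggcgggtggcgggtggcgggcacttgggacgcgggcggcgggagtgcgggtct
Cdk1: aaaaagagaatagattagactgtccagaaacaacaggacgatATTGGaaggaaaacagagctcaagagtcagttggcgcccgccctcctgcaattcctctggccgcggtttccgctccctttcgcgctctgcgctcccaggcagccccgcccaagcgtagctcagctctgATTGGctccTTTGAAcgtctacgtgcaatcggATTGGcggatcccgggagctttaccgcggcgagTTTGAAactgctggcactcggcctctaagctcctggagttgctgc
Fam83d: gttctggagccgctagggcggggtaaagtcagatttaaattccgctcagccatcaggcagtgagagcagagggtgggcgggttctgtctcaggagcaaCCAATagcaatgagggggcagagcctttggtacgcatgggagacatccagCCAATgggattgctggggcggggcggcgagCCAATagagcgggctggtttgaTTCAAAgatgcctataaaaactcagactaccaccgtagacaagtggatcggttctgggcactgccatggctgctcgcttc
Uhrf1: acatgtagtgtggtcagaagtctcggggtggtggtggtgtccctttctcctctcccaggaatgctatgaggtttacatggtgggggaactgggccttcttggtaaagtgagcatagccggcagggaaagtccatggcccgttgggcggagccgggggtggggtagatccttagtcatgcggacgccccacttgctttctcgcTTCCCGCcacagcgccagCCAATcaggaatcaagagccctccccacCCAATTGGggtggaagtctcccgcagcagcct
Chst8: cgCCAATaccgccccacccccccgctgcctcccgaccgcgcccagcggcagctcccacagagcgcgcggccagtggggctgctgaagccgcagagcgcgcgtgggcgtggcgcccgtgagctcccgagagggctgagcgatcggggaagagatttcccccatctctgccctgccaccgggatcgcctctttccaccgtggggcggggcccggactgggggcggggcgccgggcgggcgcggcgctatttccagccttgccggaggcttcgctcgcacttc

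CCAAT occurred 3 times in each of the Mki67, Cdk1, Fam83d and Uhrf1 windows, and TTTGAA occurred 2 times at Mki67 and at Cdk1. These letters were counted on both strands from 250 bases before to 50 after the start in the 15805 promoters that matched the count table, and matches of different motifs were counted separately where they overlapped. CCAAT stood in 38.8% of all these promoters, in 79.3% of those of a G2/M phase list (23 of 29 matched) and in 65.4% of those of an S phase list (17 of 26). TTTGAA stood in 15.3% of all, in 72.4% of the G2/M list and in 11.5% of the S phase list. GCGGGAA stood in 6.46% of all, in 53.8% of the S phase list (14 of 26) and in none of the 29 of the G2/M list. Over the 549 matched promoters in PND8-only regions the shares were much nearer to those of all promoters, at 43.5% for CCAAT, 15.8% for TTTGAA and 11.5% for GCGGGAA. GAGGAAGT, the core of the element bound by PU.1, the lineage factor of macrophages, stood in 3.16% of all promoters. At promoters whose H3K27ac was lower in PND8 its share was 11.5%. A match describes letters and is no evidence of binding.

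The 4 lists rested on 19749710 to 22888521 tags per library and differed in how much they called. PND8 replicate 1 held 26962 peaks over 42.5 Mb with 45.56% of its tags in them, and PND8 replicate 2 held 30321 peaks over 51.1 Mb with 54.95%. Adult replicate 1 was the thinnest list, with 19572 peaks over 30.0 Mb and 32.6% of tags, and adult replicate 2 held 24903 peaks over 42.0 Mb with 58.31%. The RNA libraries held 8816931 and 8504197 counts in PND8 and 8656255 and 8219620 counts in the adult. Numeric codes in the file headers, which the labels do not explain, are shared by replicate 2 of both H3K27ac groups but by no PND8 and adult RNA library, so for RNA the code, the reporter and the group cannot be told apart.

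Merging the 4 lists gave 33386 union regions. PND8-only regions, found in both PND8 lists and in neither adult list, numbered 3486 (10.4% of the union), and adult-only regions numbered 374 (1.12%). Another 17181 regions (51.5%) were in all 4 lists, and 12345 (37.0%) had another pattern. Of that last class, 4014 were missing from adult replicate 1 alone. Absence from a list means that the authors' caller placed no peak there, and the list then gives no tag count. In bulk chromatin, a mark carried by fewer cells and less of the mark in each cell cannot be told apart.

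**Figure D1:**
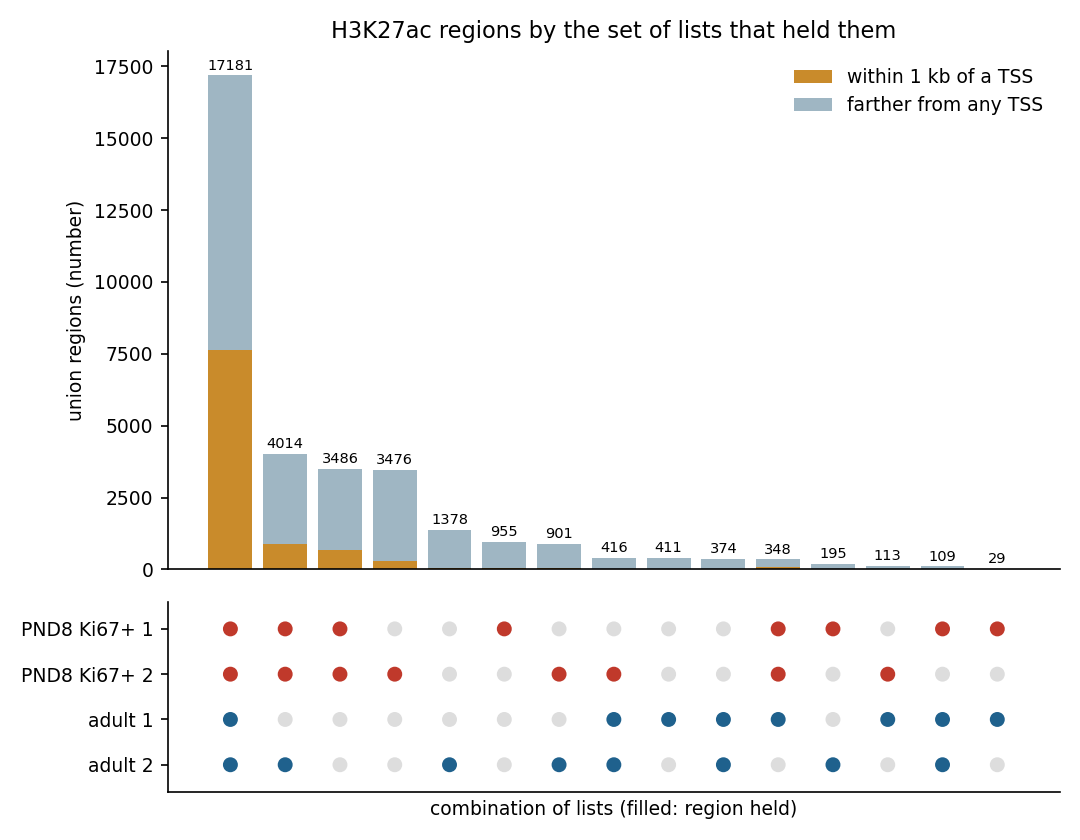
Number of union regions (vertical axis) for each combination of the 4 lists (filled circles below, red for PND8 Ki67-positive and blue for adult), with the part of each bar within 1 kb of a start site in ochre. The bar for all 4 lists holds 17181 regions, the PND8-only bar 3486 and the adult-only bar 374.

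The surplus of PND8-only over adult-only regions depended on how many peaks each list held. With each list cut to its strongest 19572 peaks, 1392 regions were PND8-only and 1178 adult-only. Leaving out a list also moved both counts, since fewer lists then have to concur. PND8-only regions numbered 7008 without PND8 replicate 1 and 7533 without adult replicate 2. Adult-only regions numbered 1763 without adult replicate 1, 857 without adult replicate 2 and 799 without PND8 replicate 2. At 8-fold over input in place of the authors' 4-fold, PND8-only regions numbered 4267 and adult-only regions 124.

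Both classes lay mostly away from promoters. A start site lay within 1 kb of 685 of the 3486 (19.7%), against 6 of the 374 (1.6%) and 7633 of the 17181 regions in all lists (44.4%). The median distance to the nearest start was 19427 bp for PND8-only and 20065 bp for adult-only regions. Of the adult-only regions, 34.8% lay within 2 kb of a PND8 peak, whereas 8.1% of PND8-only regions lay within 2 kb of an adult peak.

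Most PND8-only promoters had open chromatin and H3K4me3, a mark of promoters, in the adult as well. Of the 685, 93.0% held an ATAC-seq peak in the adult library, and 92.8% and 93.1% held an adult H3K4me3 peak in the 2 libraries. A peak of Rpb2, a subunit of RNA polymerase II, stood at 76.2% of them in the PND8 library, and at 15.3% and 6.9% in the 2 adult libraries. At regions in all lists within 1 kb of a start, the Rpb2 shares were 97.8% in PND8 and 83.7% and 72.7% in the adult. PND8-only regions farther from a start had adult open chromatin in 76.2% and adult H3K4me3 in 20.1% and 20.3%. ATAC-seq and Rpb2 had 1 PND8 library each, so these shares have no replicate check in PND8. Among adult-only regions, open chromatin stood at 75.4% in the adult and 51.6% in PND8.

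Tag counts below are the authors' counts per 10000000 tags, summed over a region and rescaled so that the median region in all 4 lists is equal in each library (factors of 0.978 and 0.786 for PND8, 1.519 and 0.856 for the adult). Only PND8-only regions with a nearest start within 100 kb were ranked by mean, which left out 479 of them. The 5 with the highest mean all lay on a start site, of Cdk1, Uhrf1, Pimreg, Mki67 and Igf2bp3.

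At Cdk1 (chr10:69350472-69353171) the scaled tag counts were 538.3 and 425.5 in the 2 PND8 libraries, and neither adult list held a peak. Its RNA was 136 and 145 counts per 1000000 counts (CPM) in PND8 against 3.70 and 4.16 in the adult, a log2 fold change of 5.16 (SE 0.212, edgeR quasi-likelihood adjusted p = 1.08e-09). Uhrf1 (chr17:56302268-56305053) held 337.0 and 284.1 scaled tags in PND8 and no adult peak. Both Uhrf1 RNA values in PND8, 96.5 and 103.9 CPM, lay far above the adult values of 3.35 and 2.20 CPM. Pimreg, whose product acts in the metaphase to anaphase transition, held 302.9 and 261.8 scaled tags. Igf2bp3, an RNA-binding protein of fetal tissues, held 314.9 and 207.6.

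Mki67 is the gene by which the PND8 cells were sorted, so its values check the labels. Its promoter (chr7:135714959-135717451) held 302.9 and 261.0 scaled tags in PND8 and no adult peak, and its RNA was 920 and 1107 CPM against 13.4 and 11 CPM. Ccnb1, the cyclin that activates Cdk1, held 141.8 and 137.2 scaled tags, with no adult peak. Its RNA was 81.2 and 89.7 CPM in PND8 and 0.463 and 0.122 CPM in the adult, and the groups did not overlap. Top2a, the topoisomerase that untangles chromosomes, held 155.8 and 118.5 scaled tags in PND8, 14.1 in adult replicate 2 and no peak in adult replicate 1. E2f1, a driver of S phase, held 348.9 and 331.9, with 35.8 in adult replicate 1 and no peak in adult replicate 2.

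Not every replication gene followed that pattern. Mcm5, a subunit of the replicative helicase, was in all 4 lists with 113.1 and 127.6 scaled tags in PND8 and 47.6 and 20.2 in the adult. The groups did not overlap, and the log2 difference was 1.92 (SE 0.450, limma adjusted p = 0.0226). The call ended without the rescaling (adjusted p = 0.148), without PND8 replicate 1 (0.0836) and without PND8 replicate 2 (0.13). Pcna, the sliding clamp of DNA polymerase, held 291.4 and 229.1 scaled tags in PND8 and 382.9 and 235.5 in the adult. These groups overlapped, and the log2 difference of -0.22 (SE 0.289) did not pass (adjusted p = 0.619). Pcna RNA was nevertheless 60.1 and 62.8 CPM against 30.3 and 33.0, a log2 fold change of 0.96 (SE 0.177, edgeR adjusted p = 0.000603).

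**Figure D2:**
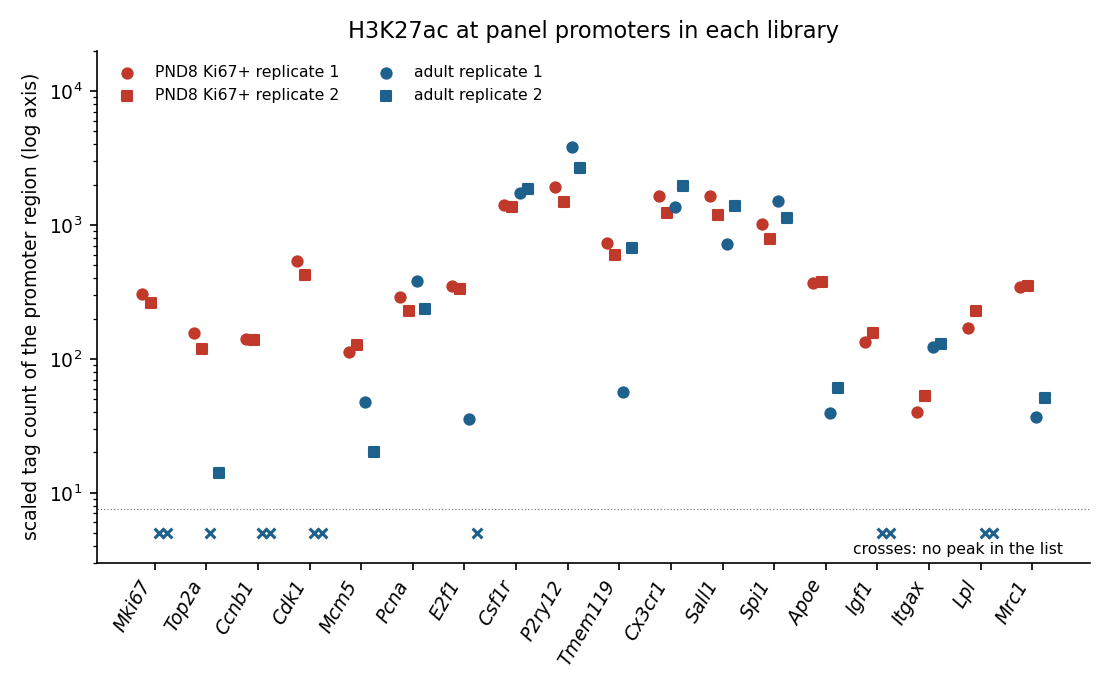
Scaled H3K27ac tag count of the promoter region (log axis) of panel genes in each library, red for PND8 Ki67-positive and blue for adult, with crosses where a list held no peak. Mki67, Ccnb1, Cdk1, Igf1 and Lpl have PND8 points and adult crosses, while the microglial genes from Csf1r to Spi1 have values in all 4 libraries.

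Over the 2 cell cycle lists, 13 of 36 S phase genes and 13 of 37 G2/M genes had a PND8-only promoter, against 717 of all 20999 genes (3.41%), and none had an adult-only one. With equal numbers of peaks the counts were 14 and 18. Leaving out adult replicate 2 gave 18 and 20. A further 8 S phase and 12 G2/M promoters were in all lists and higher in PND8 by limma, where 966 of all genes (4.6%) were. Promoters in all lists, the only ones tested, numbered 16 and 17 in these gene lists and 8618 over all genes. None of either list was lower, although 2 S phase promoters were without adult replicate 2. The higher calls numbered 0 and 3 without PND8 replicate 1, 1 and 6 without PND8 replicate 2, and 0 and 2 without the rescaling. Per kb of called peak they numbered 4 and 6. All 37 G2/M genes and 34 of 36 S phase genes rose in RNA by edgeR, where 25.1% of all tested genes rose and 24.3% fell. The list medians were 5.82 and 2.41 on the log2 scale. The exceptions were Pold3, a subunit of DNA polymerase delta, and Slbp, which binds histone mRNA, at 0.00. Pold3 fell by 0.29 (SE 0.112, edgeR adjusted p = 0.0466). The Pold3 call was lost with DESeq2, with scaling by library size only and without the filter on low counts. Examples with PND8-only promoters were Rrm2 (138.0 and 158.6 scaled tags), a subunit of ribonucleotide reductase, and Pif1, a DNA helicase (135.2 and 150.3). Cdt1, which licenses replication origins, and Fen1, a flap endonuclease, were in all lists without a call, although their RNA rose by 1.45 and 1.54.

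H3K27ac of the cell cycle promoters was also present in PND8 cells sorted as Ki67-negative. Of the 13 PND8-only promoters of each list, 11 were in both PND8 Ki67-negative lists, beside 451 of all 685 PND8-only promoters (65.8%). In the authors' units without rescaling, the Mki67 promoter held 309.7 and 332.2 tags after sorting for Ki67 and 117.3 and 131.5 tags in the cells sorted as lacking it. Cdk1 held 550.3 and 541.3 against 415.3 and 323.3. Ccnb1 held 145.0 and 174.7 against 20.9 and 12. In these 3 promoters both Ki67-negative values lay below both Ki67-positive values, and the difference was not tested. At the E2f1 promoter the values overlapped, at 356.7 and 422.3 tags in Ki67-positive cells against 369.9 and 355.4 in Ki67-negative cells. Of all 3486 PND8-only regions, 2017 (57.9%) were in both Ki67-negative lists and 598 (17.2%) in neither.

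Genes outside the cell cycle lists also had PND8-only promoters. Igf1, a growth factor (chr10:87857398-87860664), held 134.2 and 154.7 scaled tags in PND8 and no adult peak, and Lpl, a lipase (chr8:68880090-68882621), held 168.7 and 229.1. Igf1 RNA was 120 and 136 CPM in PND8 and 3.35 and 2.93 in the adult, and Lpl RNA 381 and 557 against 48.5 and 46.3. For both genes the groups lay far apart. In the authors' units, the Igf1 promoter held 137.2 and 197.0 tags in PND8 Ki67-positive cells and more, 259.7 and 245.1, in PND8 Ki67-negative cells. Lpl held 172.5 and 291.6 against 185.2 and 198.6. Apoe, the main lipid carrier of the brain, was in all lists with 370.5 and 374.1 scaled tags in PND8 and 39.7 and 60.1 in the adult, a log2 difference of 2.90 (SE 0.302, limma adjusted p = 0.00439). The called length differed as well, at 3.83 and 4.03 kb in PND8 and 0.76 and 1.22 kb in the adult. Per kb, the values were 96.7 and 92.9 against 52.6 and 49.3. Apoe RNA rose by 1.53 (SE 0.118, edgeR adjusted p = 2.59e-07). In the authors' units its promoter held 378.8 and 476.0 tags in PND8 Ki67-positive cells and 545.4 and 541.7 in PND8 Ki67-negative cells, a difference that was not tested.

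Of the 24 genes of the neonatal and disease-associated activation list, 18 rose and none fell in RNA by edgeR, beside 25.1% and 24.3% of all tested genes, with a median of 1.52. Their promoters were split, where 3.41% of all genes had a PND8-only promoter, 4.6% a higher one and 1.39% a lower one. Promoters in all lists, the only ones tested, numbered 12 in this gene list and 8618 over all genes. There were 6 PND8-only promoters (Igf1, Lpl, Vat1, Fabp5, Axl and Anxa5), of which 3 were left with equal numbers of peaks, 3 higher by limma (Apoe, Plin2 and Lgals1) and 4 lower (Itgax, Ccl3, Ccl4 and Cd68). The 4 lower calls were all lost without PND8 replicate 1 and without PND8 replicate 2. Spp1, which encodes osteopontin, Gpnmb, a membrane glycoprotein, and Dkk2, a secreted Wnt modulator, had no H3K27ac region within 1 kb of the start in any list. Their RNA nevertheless rose, for Spp1 from 6.48 and 5.99 CPM in the adult to 207 and 220 CPM in PND8, and for Gpnmb from 0.463 and 0.855 to 72.0 and 77.9.

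At Itgax and Ccl3 the mark and the RNA moved in opposite directions. Itgax, which encodes the integrin CD11c (chr7:128128344-128130021), held 39.8 and 53.1 scaled tags in PND8 and 123.3 and 129.4 in the adult, a log2 difference of -1.44 (SE 0.335, limma adjusted p = 0.0221). Its RNA was 78.5 and 87.0 CPM in PND8 against 28.6 and 25.7, a log2 fold change of 1.61 (SE 0.169, edgeR adjusted p = 4.65e-06). Ccl3, a chemokine, held 207.1 and 225.2 against 551.3 and 412.3 scaled tags. Its RNA was 65.4 and 52.8 CPM against 32.5 and 30.6. Neither gene's groups overlapped in either measure. The Itgax call was lost without the rescaling (adjusted p = 0.432) and without either PND8 library (0.279 and 0.119).

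Promoters of homeostatic microglial genes carried the mark in both groups. All 22 promoters of that list were in all 4 lists and so could be tested, as were those of 8618 of all 20999 genes. By limma 4 were lower in PND8 (P2ry12, P2ry13, Entpd1 and Gpr34) and none higher, where 292 of the 8618 were lower (1.39% of all genes). The median log2 difference was -0.27, beside 0.19 over the 8618. The 4 lower calls numbered 2 without PND8 replicate 1, 1 without PND8 replicate 2 and 0 without the rescaling, and each of the 2 fits without a PND8 library called 1 promoter higher. Without adult replicate 2, 5 were higher and 4 lower with a median of 0.01, and with the replicate block 3 were higher and 8 lower. P2ry12, a purine receptor (chr3:59257754-59265562), held 1926 and 1495 scaled tags in PND8 and 3848 and 2668 in the adult, a log2 difference of -0.92 (SE 0.253, limma adjusted p = 0.0377). That call ended without the rescaling (adjusted p = 0.674), without PND8 replicate 2 (0.111) and without adult replicate 1 (0.182). P2ry13, its neighbour and another purine receptor, held 1149 and 1157 against 3462 and 2656, a log2 difference of -1.39 (SE 0.219, adjusted p = 0.00722).

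In RNA, 13 of the 22 homeostatic genes fell and none rose by edgeR, beside 24.3% and 25.1% of all tested genes. Their median was -0.33, which is small beside the cell cycle lists. The largest falls were of Mertk, a receptor for dying cells (-0.92), and Selplg, a selectin ligand (-0.90). P2ry12 RNA was 819 and 793 CPM in PND8 and 967 and 963 CPM in the adult, without overlap, and did not pass (log2 fold change -0.26, adjusted p = 0.0813). The count of falls in the list was 20 when only the 4 libraries of the comparison entered the fit. It was 16 without the filter on low counts and 13 with DESeq2. With an RNA library left out, the median of the list lay between -0.34 and -0.32. Csf1r, the receptor microglia need to survive, held 1404 and 1356 scaled tags in PND8 against 1733 and 1851 in the adult and was not called (log2 -0.38, adjusted p = 0.204). At Tmem119, a microglial membrane protein, the values were 727.2 and 593.9 against 56.3 and 672.6. Adult replicate 1 alone was low there, with 0.62 kb called where the other libraries had 3.76 to 4.56 kb, and the difference was not called (adjusted p = 0.187). Tmem119 RNA fell by 0.66 (SE 0.107, adjusted p = 0.000223).

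Among lineage transcription factors the promoter of Maf rose (646.2 and 557.2 scaled tags against 298.6 and 272.8; log2 1.07, SE 0.215, limma adjusted p = 0.0145) and no other promoter of the list was called. The Maf call was lost without PND8 replicate 1, without PND8 replicate 2, without the rescaling and per kb. Without adult replicate 2, 6 promoters of the list were higher and 1 lower. Of the 20 genes, 11 fell and 2 rose in RNA, beside 24.3% and 25.1% of all tested genes. Tfec, a relative of Mitf, rose by 3.43 in RNA, and its promoter held 147.6 and 132.4 scaled tags in PND8, 32.8 in adult replicate 2 and no peak in adult replicate 1. Sall1 and Spi1, which specify microglia and macrophages, were called in neither measure.

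In the immediate early and NF-kB list, 23 promoters were in all 4 lists. Of these, 4 were lower in PND8 (Atf3, Klf6, Egr3 and Egr2) and none higher, beside 292 lower of the 8618 promoters in all lists (1.39% of all genes). The lower calls numbered 2 without PND8 replicate 1, 0 without PND8 replicate 2, 0 without the rescaling and 9 without adult replicate 2. Of its 24 genes, 6 rose and 7 fell in RNA, near the shares of all tested genes (25.1% and 24.3%). The count of falls was 11 without PND8 replicate 1 and 4 without PND8 replicate 2 or without either adult library. The PND8 libraries differed from each other in this group, with Fos at 170 and 14.2 CPM and Egr1 at 355 and 32.0 CPM, against 50.8 to 64.2 and 65.8 to 66.6 CPM in the adult. Egr3, a transcription factor, was lower in both measures, with 35.5 and 33.6 against 98.8 and 123.3 scaled tags and 0.661 and 0.925 against 9.25 and 8.68 CPM. Of 20 interferon response genes, 8 rose and none fell in RNA, beside 25.1% and 24.3% of all tested genes, and 5 rose without adult replicate 1. The promoters of Ifit2 and Oasl2 were PND8-only, beside 3.41% of all genes, and such promoters numbered 6 without adult replicate 2 and 1, with 2 adult-only, at equal numbers of peaks. The promoter of Isg15 was called lower and none was called higher by limma. That call was lost without PND8 replicate 1 and without the rescaling, and lower calls numbered 3 without adult replicate 1.

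**Figure D3:**
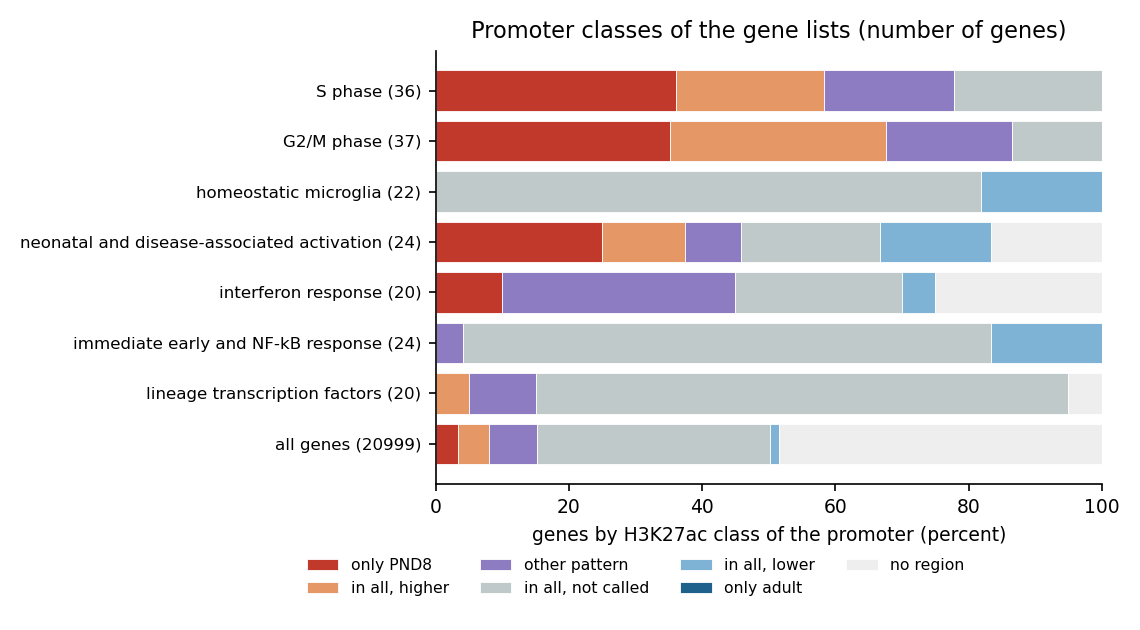
Share of the genes of each list (horizontal axis, percent) by the H3K27ac class of the promoter, with the number of genes in brackets and all 20999 genes in the lowest bar. The S phase and G2/M bars hold 13 PND8-only genes each (red), and the homeostatic bar holds only regions present in all 4 lists, 4 of them lower in PND8 (blue).

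At the 17181 regions in all lists, limma called 1252 higher (7.29%) and 2094 lower (12.2%) in PND8. The groups did not overlap at 11034 of the regions (64.2%), and 6300 had an unadjusted p under 0.05. The 2 directions differed in position. Of the higher regions, 824 (65.8%) lay within 1 kb of a start, and of the lower ones 281 (13.4%), whose median distance was 17854 bp. Regions that were not called were at promoters in 47.2%. The median log2 difference was 1.44 among the higher and -1.18 among the lower regions.

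The number of calls rested on the scaling and on the spread of single libraries. The rescaling moved the median over all regions from 0.31 to -0.07, and without it 32 regions were higher and 8 lower. The adult replicates differed more, with an SD of their log2 difference of 0.666 against 0.359 in PND8. Without PND8 replicate 1 or 2 there were 191 or 218 higher and 762 or 740 lower calls, and without adult replicate 1 or 2 there were 3162 or 3617 higher and 3747 or 4197 lower calls. In each of these fits the lone library was assumed to vary like the other group's pair.

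**Figure D4:**
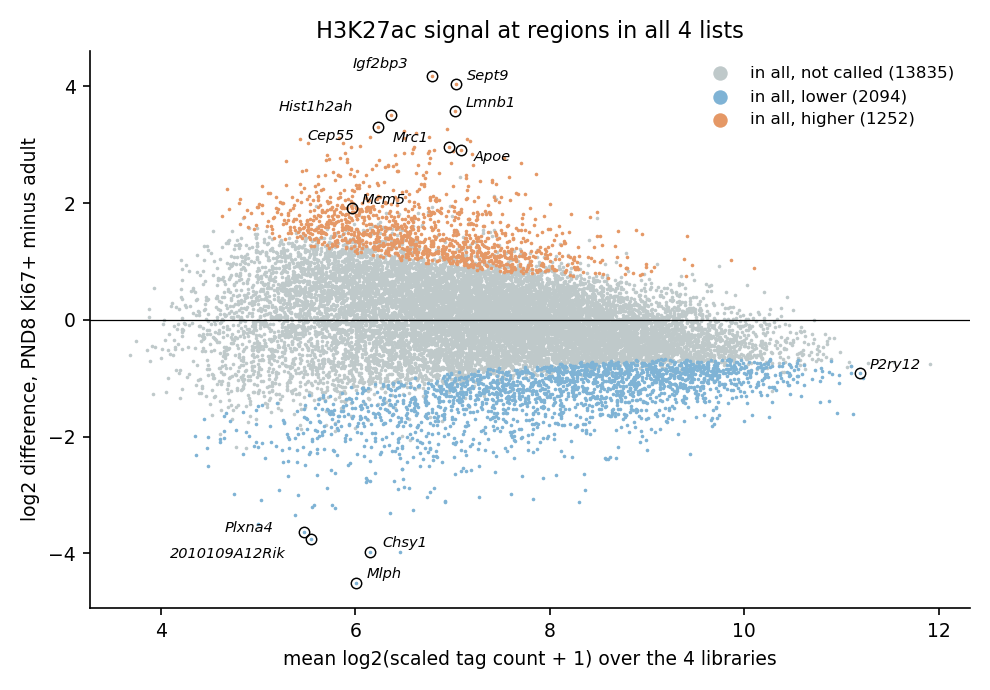
Log2 difference of the scaled tag count, PND8 Ki67-positive minus adult (vertical axis), against the mean log2 level over the 4 libraries, for the 17181 regions in all lists, orange where limma called PND8 higher (1252) and blue where lower (2094). Igf2bp3 at 4.18 and Mlph at -4.50 mark the extremes, and P2ry12 lies among the highest levels.

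The 5 largest rises lay in or near Igf2bp3, Sept9, Lmnb1, Hist1h2ah and Cep55. The region inside Igf2bp3 (chr6:49208039-49211888), 3.07 kb from its start, held 458.3 and 476.8 scaled tags in PND8 and 35.0 and 17.7 in the adult, a log2 difference of 4.18 (SE 0.366, limma adjusted p = 0.0037). Called length was 3.40 and 3.85 kb against 0.5 kb in each adult library, and per kb the log2 difference was 1.53. In the 2 libraries that share a header code, 1 per group and so with no test, it was 4.68. Igf2bp3 RNA was 129 and 160 CPM against 2.54 and 2.81. Sept9, a septin, was nearest to a region 132 kb from its start site with 576.2 and 489.1 against 19.8 and 49.7 scaled tags. The promoter of Sept9 was also in all lists and higher by limma. The promoter of Lmnb1, a lamin of the nuclear envelope, held 478.3 and 422.6 against 17.1 and 78.2. Cep55, which acts in the last step of cell division, held 233.0 and 237.9 scaled tags in PND8 and 38.3 and 13.7 in the adult. Its RNA was 99.7 and 121 CPM against 0.925 and 0.978. The promoter of the histone gene Hist1h2ah held 270.4 and 286.5 against 25.1 and 21.9, and its RNA count was 0 in all 4 libraries. All 5 regions were separated between the groups, which the rule that chose them required.

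The largest falls included regions nearest to Mlph, Chsy1, 2010109A12Rik and Plxna4. Mlph encodes melanophilin, an adaptor of vesicle transport (chr1:90914746-90918976). It held 13.9 and 11.3 scaled tags in PND8 and 238.1 and 392.3 in the adult, a log2 difference of -4.50 (SE 0.386, limma adjusted p = 0.0037). Per kb it fell by 1.56 on the log2 scale, and in the libraries that share a header code the difference was -4.99. Its RNA fell as well, from 228 and 224 CPM in the adult to 11.7 and 11.1 CPM in PND8. Chsy1, a chondroitin synthase, held 14.8 and 19.3 scaled tags against 254.7 and 308.3 at a region 86.3 kb away, and its RNA fell by 1.69 on the log2 scale. The Plxna4 region was uneven in the adult, with 57.6 and 414.4 scaled tags against 11 and 12.1 in PND8. Without the rescaling the calls at 2010109A12Rik (adjusted p = 0.0692) and Plxna4 (0.154) were lost.

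The adult-only regions lay mostly far from starts. Only those with a nearest start within 100 kb were ranked by mean, which left out 51. The 5 with the highest mean were nearest to Hs1bp3 (36.9 kb away; 577.3 and 663.9 scaled tags), Gpr34, a lysophospholipid receptor of microglia (60.5 kb; 570.6 and 575.5), Ctsd, a lysosomal protease (1.97 kb; 331.7 and 637.9), Nuak1, a kinase (41.8 kb; 273.9 and 617.6), and Ccr1, a chemokine receptor (32.1 kb; 253.4 and 585.1). Adult replicate 1 was the lower of the pair in all 5. The Gpr34 region was in both PND8 Ki67-negative lists, with 162.2 and 74.0 tags in the authors' units. It also held an Rpb2 peak in the PND8 library. The Ccr1 region was in Ki67-negative replicate 2 alone (89.7), and the other regions were in neither of those lists. Gpr34 RNA fell by 0.40 (SE 0.087, edgeR adjusted p = 0.00194) and Nuak1 RNA by 0.41 (adjusted p = 0.0167), a call lost without PND8 replicate 2 (0.192) and without either adult library (0.075 and 0.0692). Hs1bp3 and Ctsd were not called in RNA. Ccr1 went the other way, with 108.4 and 108.8 CPM in PND8 against 24.3 and 16.2 in the adult (log2 2.42, SE 0.143, adjusted p = 2.02e-08).

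Of all 20999 genes, 5 (0.0238%) had an adult-only promoter, and the RNA of these 5 was lower in PND8 by edgeR. Csmd3, a large membrane protein (chr15:48789639-48792974), held 94.1 and 269.3 scaled tags in the adult. Its RNA was 276 and 242 CPM in the adult and 1.87 and 0.925 CPM in PND8, a log2 fold change of -7.51 (SE 0.272, adjusted p = 3.38e-10). Chst8 held 49.0 and 78.7 scaled tags, and its RNA was 41.8 and 33.0 CPM against 2.20 and 1.27. Six5, a homeobox factor, fell by 4.75 in RNA, Ifi209, an interferon-inducible gene, by 1.55, and Chd3, a chromatin remodeller, by 0.51. The Six5 and Ifi209 promoters were in both PND8 Ki67-negative lists. Of all 374 adult-only regions, 82 (21.9%) were in both Ki67-negative lists and 200 (53.5%) in neither.

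RNA was set beside the promoter classes to ask whether mark and transcript moved together. Of 717 genes with a PND8-only promoter, 666 passed the count filter (5.45% of all tested genes), and 306 of these rose (45.9%) and 75 fell (11.3%), with a median log2 fold change of 0.52. Over all 12230 genes, 3073 rose and 2976 fell with a median of 0.00. Promoters in all lists that were higher in PND8 had 441 of 939 genes higher in RNA (47.0%) and 63 lower (6.71%). Those that were lower in PND8 had 19 of 287 genes higher (6.62%) and 177 lower (61.7%). At promoters in all lists without a call, 22.3% rose and 26.5% fell. These shares describe genes that are not independent of each other, and the H3K27ac and RNA came from different mice. The relation was loose gene by gene, with a Spearman rho of 0.289 and a Pearson r of 0.361 across the 8424 tested genes whose promoter was in all lists. Of the 3073 genes that rose, 9.96% had a PND8-only promoter, 14.4% one that was higher by limma and 52.1% one that was not called.

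**Figure D5:**
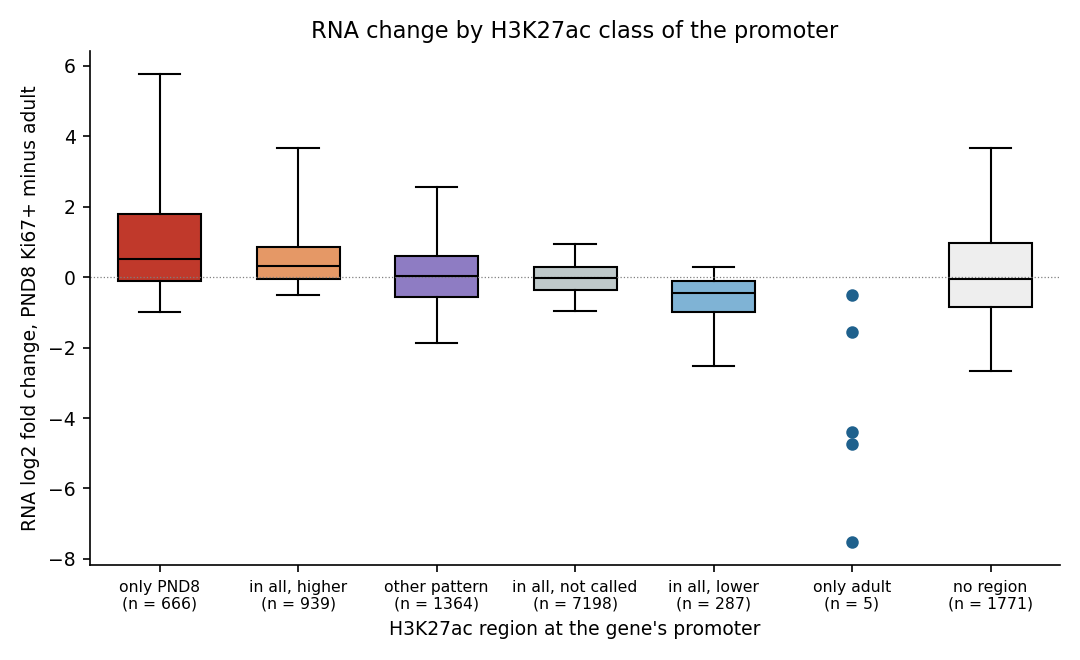
RNA log2 fold change, PND8 Ki67-positive minus adult (vertical axis), of tested genes by the H3K27ac class of the promoter, as boxes of quartiles with the median and whiskers at the 5 and 95 percentiles, or as points for the 5 adult-only genes. The median is 0.52 for PND8-only promoters, 0.33 for higher, -0.46 for lower and -0.04 for uncalled ones, and all 5 adult-only points lie below 0.

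Distal regions were assigned to the nearest start. For PND8-only regions between 1 and 100 kb from the nearest start, 477 of 1574 tested genes rose (30.3%) and 382 fell (24.3%). Their median was 0.04, and of all tested genes 25.1% rose and 24.3% fell. For adult-only regions at that distance, 24 of 262 rose (9.16%) and 148 fell (56.5%). Regions in all lists that were lower in PND8 gave 10.2% and 51.5%, and those that were higher gave 38.3% and 16.9%. Regions in all lists without a call gave 20.1% and 33.6% at that distance, with a median of -0.11. Regions with another pattern gave 23.0% and 31.0%. The difference between the directions was not tested, and assigning a distal region to its nearest start need not name the gene it acts on.

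Genes whose own nearest region within 100 kb was PND8-only were ranked by their RNA change. In this ranking and those below, genes at or under 3 counts in every library of a group counted by the bound of their fold. Cenpw, with a PND8-only promoter and a log2 fold change of 8.98, was not among the genes placed highest. By this ranking RNA rose most at Pif1, Ccnb1, Bub1, a kinase of the spindle checkpoint, Fam83d and Sapcd2, all with the region at the promoter. Their log2 fold changes were 8.17, 8.10, 7.59, 7.46 and 7.31. In each, an ATAC-seq and an H3K4me3 peak stood at the promoter in the adult libraries too, and Rpb2 stood there in the PND8 library and in neither adult library. Among genes whose own nearest region was adult-only, RNA fell most at Csmd3, Six5, Chst8, Galnt16 and Mamld1. Galnt16, a glycosyltransferase, was at or under 3 counts in both PND8 libraries, so its RNA was at least 16.7-fold lower there. In the opposite direction, the largest falls at genes nearest to a PND8-only region were of Irs3, Prkcz and Xylt1, whose regions were 15.7 to 53.0 kb away, with log2 fold changes of -3.25, -2.54 and -2.44. The Irs3 call was lost without adult replicate 2 (adjusted p = 0.0593) and without PND8 replicate 2 (0.07). By the same rule Ten1 rose beside an adult-only region, by 0.86.

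RNA of microglial markers was high in all libraries, with summed levels of 7260 and 7215 CPM in PND8 and 8582 and 8677 CPM in the adult over 8 genes. Markers of border macrophages summed to 860.6 and 848.7 CPM in PND8 and 65.3 and 81.3 CPM in the adult. Of these 8 genes, 3 rose (Mrc1, Pf4 and Cbr2), beside 25.1% of all tested genes. Mrc1, the mannose receptor, made up nearly all of the PND8 sum and the larger share of the adult one, at 834 and 814 CPM against 49.7 and 52.7. Lyve1, Cd163, Ms4a7 and Clec10a each stayed under 10 CPM and did not pass. The Mrc1 promoter was in all lists with 344.1 and 351.4 scaled tags in PND8 and 37.0 and 51.4 in the adult (log2 2.97, SE 0.296, limma adjusted p = 0.00439). Per kb it held 145.4 and 129.4 against 41.5 and 42.5. The promoters of Pf4, Cbr2 and F13a1 were PND8-only, beside 3.41% of all genes.

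Markers of monocytes and neutrophils summed to 7.0 and 5.3 CPM in PND8 and 231.9 and 70.0 CPM in the adult. All 7 tested genes were higher in the adult, as were 24.3% of all tested genes. None of the 8 had an H3K27ac region at the promoter in any of the 4 lists, as was so for 48.4% of all genes and 14.5% of tested genes. The 5 tested erythroid genes rose, beside 25.1% of all tested genes, with sums of 61.5 and 23.3 against 0.5 and 7.5 CPM. Astrocyte markers summed to 61.5 and 376.2 CPM in PND8 and 240.3 and 248.3 in the adult, mostly Slc1a3. Of these, 2 of 7 tested genes rose (Gfap and Gja1), near the 25.1% of all tested genes. None of the 8 lymphocyte genes passed the count filter, with Cd8a and Cd3g at 0 in all 4 libraries, and neuron markers summed to between 5.1 and 6.2 CPM. The part of other cell types in the differences between the groups was not tested.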

How the data were processed

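H3K27ac peaks were called by the authors with HOMER on each library separately on mm10, as regions stitched from windows and at least 4-fold over input, per the file headers. The submitters' processing notes name HOMER 4.11, Bowtie2 2.3.4.1, STAR 2.7.0f and DESeq2. The deposited signal is the tag count of a peak per 10000000 tags. The fold over input was read from the deposited ratio column that matched total over control tags in 99.5% to 99.9% of peaks, since the column headings are shifted. RNA was deposited as raw counts over exons on mm10, made by the authors with HOMER with at most 3 tags per position, per the file headers. The strand setting is not given in the sources used here.

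Peaks of the 4 lists that overlapped were merged, tags were summed per region, and each library was centred on its median log2 over the regions in all lists. Those regions were tested with limma 3.58.1 on log2(scaled tags + 1), 2 libraries against 2. RNA was tested with edgeR 4.0.16 (R 4.3.3, TMM, quasi-likelihood) over all 10 RNA libraries in 5 groups, which left 12230 genes and a biological coefficient of variation of 0.0957. The groups outside the comparison were PND8 Ki67-negative cells, and Ki67-positive and Ki67-negative cells of adult Ki67-rfp males given PLX5622 and left to recover. Benjamini-Hochberg adjusted p under 0.05 was the threshold in both tests. DESeq2 1.42.0 was an alternative, and the closing section gives the effect of the others. CPM uses TMM-scaled library sizes. A region belongs to the promoter of a gene when its start site in the count table lies within 1 kb. Where a gene is at or under 3 counts in every library of a group, its fold is a bound at that floor. RefSeq promoters matched 75.3% of genes, with a start within 100 bp.

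The named regions were a panel of promoters, the 5 strongest of each presence class with a nearest start within 100 kb, and examples of the lists. They included the 5 largest rises and falls among called regions in all lists whose groups did not overlap. They also included the 5 genes with the largest matching and the 3 with the largest opposite RNA change. In that ranking, genes at or under 3 counts in every library of a group counted by their bound. Some of these are not reported here. The members and lists were chosen with earlier results of these data known. On simulated data with 200 changed items, the H3K27ac test called 74 of 112 regions changed 4-fold, 2 of 88 changed 2-fold and 1 unchanged region of 17181. The RNA test called 101 of 102 genes changed 4-fold, 81 of 98 changed 2-fold and 10 unchanged genes of 11975. The H3K27ac simulation changed far fewer regions than were called in the data and used a single spread per group. Its share of 2-fold differences called therefore does not carry over to the data. There, 1132 higher and 1440 lower calls were of at least 2-fold, as were the differences at 925 uncalled regions. Sequences centred on open chromatin peaks were not used here.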

Additional observations from a re-analysis of the deposited data

How the results depend on the processing

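PND8-only regions numbered 3486 and kept within 1.5 times of that under other merging rules, but numbered 1392 with equal numbers of peaks, 3835 to 7533 with a list left out and 7482 from the 2 lists that share a header code. Adult-only regions numbered 374, but 124 at 8-fold over input, 1178 with equal numbers of peaks, 487 to 1763 with a list left out and 2093 in the lists that share a code. Regions in all lists numbered 17181 and, at 8-fold, 8067. At those regions the 1252 higher and 2094 lower calls became 32 and 8 without centring, and 191 to 3617 and 740 to 4197 with a library left out. With edgeR on whole tags recovered from the deposited values (100.0% whole within 0.15 of a tag), chosen after seeing the data, they were 1312 and 1687. The replicate numbers are shared between the groups, the labels do not say that a number marks a common source, and same-numbered libraries deviated together only weakly (r = 0.278 for H3K27ac, -0.008 for RNA). With the replicate block H3K27ac calls numbered 2526 and 3984, and RNA calls 3560 and 3473. The 3073 higher and 2976 lower RNA calls became 2316 to 2502 and 2152 to 2244 with a library left out, and 1178 and 900 of them were of at least 2-fold.

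Of genes nearest to PND8-only regions, 32.7% rose. The share was 40.4% within 10 kb, 43.0% with equal numbers of peaks, 28.2% in the lists that share a code, 27.9% to 31.9% with an H3K27ac list left out (28.5% without PND8 replicate 1) and 25.3% to 26.8% with an RNA library left out. The share that fell, 22%, was 15.3%, 15.8%, 24.7%, 22.2% to 25.8% (24.6% without PND8 replicate 1) and 15.3% to 15.9% under the same choices. Beside adult-only regions 9.63% rose, and 14.6% in the lists that share a code, 9.77% to 13.7% with an H3K27ac list left out and 6.56% to 7.87% with an RNA library left out. There 56.5% fell, and 62.4% within 10 kb, 50.5% at 8-fold, 45.3% in the lists that share a code, 46.4% to 54.8% with an H3K27ac list left out (47.0% without adult replicate 2) and 44.9% to 47.9% with an RNA library left out.

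Of the named values, these changed sign, none of them called with all libraries: Pcna H3K27ac to 0.16 uncentred and 0.13 without adult replicate 1 (-0.57 without adult replicate 2), Csf1r to 0.00 and Cx3cr1 to 0.19 uncentred, Cx3cr1 also to 0.02 without PND8 replicate 2 and 0.06 without adult replicate 2 (-0.44 without adult replicate 1), Tmem119 to -0.03 without adult replicate 1 (3.52 without adult replicate 2) and -0.18 in the libraries that share a code, Sall1 to -0.03 per kb and -0.22 in those libraries, and 2010109A12Rik RNA to -0.03 without PND8 replicate 1 (2.34 without PND8 replicate 2). Of 15 called H3K27ac differences at named regions, 9 kept the call in every setting tested and 6 lost it in 1 to 3 settings each. Depth limits small differences: the peak with the fewest tags held 12 to 15 in each list.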
